A study of Mus musculus with 30 samples.

Results

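The smooth muscle contractile genes examined here are 10 genes chosen by symbol: *Acta2*, *Myh11*, *Tagln*, *Cnn1*, *Actg2*, *Des*, *Smtn*, *Mylk*, *Lmod1* and *Myocd*. All 10 were found among the 26253 genes listed for the descending thoracic aorta, and all 10 passed the expression filter in each of 11 comparisons. Bulk RNA-seq was available for 30 aortas in 6 groups. Untreated control mice (*Col3a1* wild type, n = 6) were set beside untreated VEDS mice (n = 6), which model vascular Ehlers-Danlos syndrome with a heterozygous glycine substitution in the triple helix of type III collagen. Hydralazine, a vasodilator given from birth at 32 mg/kg/day in drinking water, was received by a further 6 control and 6 VEDS mice. HB mice (VEDS, n = 3) received hydralazine plus the androgen receptor antagonist bicalutamide (50 mg/kg/day in chow), and HS mice (VEDS, n = 3) received hydralazine plus spironolactone (100 mg/kg/day in chow), which blocks androgen and mineralocorticoid receptors. Both antagonists were started on day 21 and collection of these aortas was on day 60. All mice were male and on the C57BL/6J background, and hydralazine is shared by HB, HS and both hydralazine groups. The untreated and hydralazine groups hold mice of 30 and 60 days, and the age of a single library is not labelled, so HB or HS differs from these groups in age composition as well as in treatment. The whole-body genotype is present in every cell type, and the dissected wall holds smooth muscle, endothelium and remaining adventitia.

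Smooth muscle cells of the aortic media contract when calcium and calmodulin activate myosin light chain kinase, which phosphorylates the regulatory light chain of smooth muscle myosin and lets it pull on actin filaments. Calponin, transgelin, smoothelin and leiomodin bind those filaments, and desmin forms intermediate filaments that tie the contractile apparatus together. Myocardin is a coactivator of serum response factor, which binds CArG boxes in the promoters of many genes of this group, and a fall of the set is the usual sign of smooth muscle dedifferentiation.

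*Acta2* and *Actg2* encode the vascular and the enteric smooth muscle actin and are the pair most easily confused by read counting, so their coding sequences were compared first. In GENCODE M21 the longest open reading frames hold 1134 bases for *Acta2* and 1131 for *Actg2*, and 84.2% of aligned bases are identical, with 176 substitutions and no identical stretch longer than 29 bases. The 60 coding bases in which the genes differ most run from base 436 of *Acta2* and from base 433 of *Actg2*, with the 16 differing bases in capitals.
*Acta2*: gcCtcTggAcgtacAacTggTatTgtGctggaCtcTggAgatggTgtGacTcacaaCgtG
*Actg2*: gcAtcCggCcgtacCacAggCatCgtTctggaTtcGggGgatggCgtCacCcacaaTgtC
The spread of these differences bears on whether reads of *Actg2* were separated from those of the far more abundant *Acta2*. Every expected count of all 10 genes was whole in all 30 libraries, and the largest posterior SD of a count, the uncertainty RSEM gives to its read assignment, was 0.03 for *Acta2* and *Myh11* and 0 for the other 8.

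RefSeq promoter windows on GRCm38.p6 (250 bases before to 50 after the start) were held for 6 of the 10 genes, *Acta2*, *Cnn1*, *Des*, *Smtn*, *Mylk* and *Lmod1*. The CArG box was searched as CC, 6 bases of A or T, and GG, a pattern that reads alike on both strands, with at most 1 substitution among the middle 6. Such a match occurs in 9.98% of all 32851 windows and an exact box in 1.63%. *Acta2* alone among the 6 had a match, and had 2, both with 1 substitution. They are printed because they show the element through which myocardin is known to act, with the match in capitals.
*Acta2*, chr19:34255438-34255467, minus strand, match starting 84 bases before the start: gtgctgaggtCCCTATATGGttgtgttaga
*Acta2*, chr19:34255388-34255417, minus strand, match starting 34 bases before the start: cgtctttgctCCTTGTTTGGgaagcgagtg

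Library totals ran from 5517510 to 8293289 expected counts, and the 10 genes took 1.71% to 3.15% of them. By matrix transcripts the libraries fell into 2 clusters. *Col3a1*, type III collagen, lay between 4316 and 7710 CPM (counts relative to the library total, scaled with TMM factors) in 18 libraries and between 13568 and 17691 in the other 12. The upper cluster held 3 libraries of each untreated and hydralazine group and none of HB or HS. *Eln*, elastin, ran from 2210 to 6707 CPM in the lower cluster and from 10014.5 to 17739 in the upper. The proliferation gene *Mki67* ran from 7.91 to 33.3 and from 22.0 to 137 CPM, and overlapped. The authors report that *Col3a1*, *Eln* and proliferation transcripts fall with age while *Myh11* and *Lmod1* rise. HB and HS hold only the older age, and the other groups hold both. Whether cluster follows age was not tested, because age is not labelled per library. Across both clusters, 3 libraries stood apart by transcripts of other cells or of stress. The cardiac myosin *Myh6* reached 403 CPM in HB replicate 2 and 427 in hydralazine-treated control replicate 5, against a median of 8.30 over all 30, and the heat shock gene *Hspa1b* reached 709 CPM in HS replicate 3, against a median of 68.9. *Hspa1b* lay at 166 to 225 CPM in the 3 HB libraries. Some values that rest on these libraries are also given without them.

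The contractile genes differed widely in level. Per unit of transcript length, *Acta2* was highest at a mean of 2420 TPM (length-adjusted transcript share), followed by *Tagln* at 1478, *Myh11*, the smooth muscle myosin heavy chain, at 793 and *Cnn1* at 398.7. *Mylk* followed at 114 TPM, *Actg2* at 84.7, *Lmod1* at 79.4 and *Smtn* at 73.0, and the ranges of these 4 neighbours overlapped. *Myocd* at 21.2 TPM and *Des* at 9.57 were lowest, and their ranges also overlapped. *Actg2* stood at between 3.20% (HS) and 3.91% (hydralazine-treated control) of the *Acta2* TPM in the group means. The highest library exceeded the lowest by 1.76 times for *Cnn1* and by 1.79 times for *Acta2*, but by 3.20 times for *Myocd* and 3.83 times for *Des*. Within groups the coefficient of variation ran from 12.9% for *Actg2* to 26.6% for *Myocd*. Untreated control replicate 5 was the lowest of all 30 libraries for 6 of the 10 genes, and untreated VEDS replicate 1 the highest for 5. The length that RSEM weighted over isoforms ran from 6604 to 6611 bases for *Myh11*, from 3181 to 3199 for *Smtn* and from 5108 to 5118 for *Myocd*, and the other genes have 1 listed transcript.

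**Figure D1:**
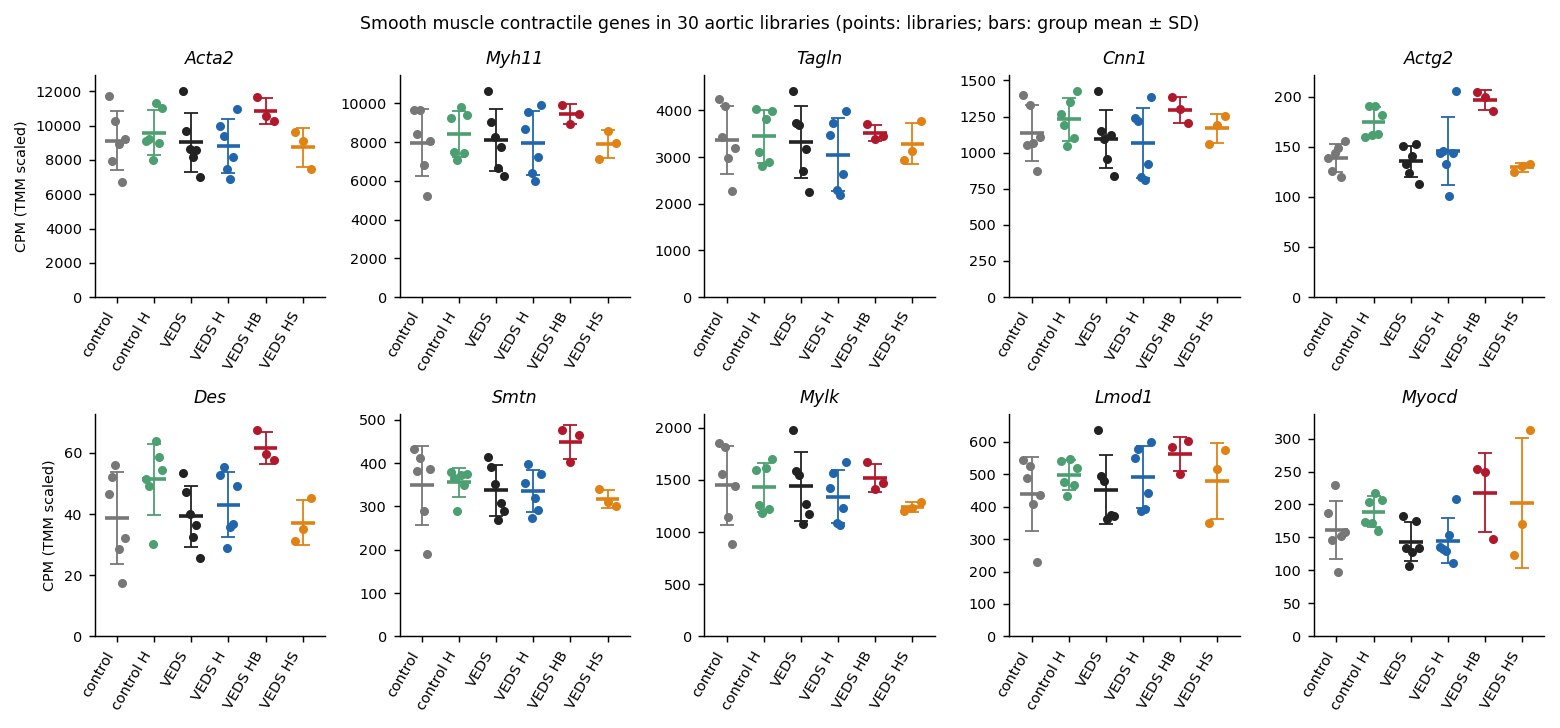
CPM of each contractile gene (y axis, TMM scaled, starting at 0) in the 30 libraries by group (x axis; H is hydralazine), with points for libraries and bars for the group mean ± SD. For *Actg2*, the 3 HB points (186 to 205 CPM) lie above the 3 HS points (125 to 133 CPM), while for *Acta2* and *Myh11* the 6-library groups span the range of nearly all other points.

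HB and HS were compared to ask whether the antagonists, each given with hydralazine from day 21 to day 60, left different transcript levels. All 10 contractile genes had a higher mean in HB, and 6 of them (*Acta2*, *Actg2*, *Myh11*, *Mylk*, *Smtn* and *Des*) were higher in each HB library than in each HS library, which was true of 7.89% of the 12800 genes tested. By edgeR's quasi-likelihood test, however, 0 of the 10 passed at an adjusted p of 0.05, and neither did any other gene (0%). At an unadjusted p of 0.05, 6 of the 10 and 6.68% of all genes passed, and DESeq2 called 3 of the 10 (*Actg2*, *Des* and *Smtn*) and 0.273% of all genes. Lower levels of a transcript in bulk tissue can mean fewer cells of a type or less RNA per cell, and these cannot be told apart.

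Among the actins, *Actg2* was measured at 205, 199 and 186 CPM in HB and at 125, 131 and 133 CPM in HS. The groups did not overlap, and the log2 fold change was 0.60 ± 0.08 (SE; edgeR adjusted p = 0.404, 95% interval 0.41 to 0.79), which ranked 2 of 12800 genes by p. *Acta2*, at 11686, 10556 and 10296 CPM in HB and 9608, 9124 and 7466 CPM in HS, also did not overlap. Its log2 fold change was 0.31 ± 0.13 (edgeR adjusted p = 0.737), and its lowest value belonged to HS replicate 3.

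The motor and its kinase showed smaller differences. *Myh11* stood at 9934, 8915 and 9451 CPM in HB and at 7144, 8576 and 7953 CPM in HS, with a log2 fold change of 0.25 ± 0.11 and an interval from 0.00087 to 0.50. *Mylk*, the myosin light chain kinase, stood at 1668, 1413 and 1470 CPM in HB and at 1199, 1232 and 1289 CPM in HS, with a log2 fold change of 0.28 ± 0.10. In both genes each HB library lay above each HS library, and neither passed by edgeR (adjusted p = 0.746 and 0.686).

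Of the actin-binding genes, *Smtn*, smoothelin, had 476, 403 and 466 CPM in HB and 339, 311 and 300.2 CPM in HS. Its groups did not overlap, with a log2 fold change of 0.49 ± 0.10 (edgeR adjusted p = 0.538). *Lmod1*, leiomodin 1, a nucleator of actin filaments, overlapped between the groups, at 583, 502 and 603 CPM in HB and 349, 516 and 576 CPM in HS. *Tagln* and *Cnn1* overlapped too, with log2 fold changes of 0.09 ± 0.12 and 0.14 ± 0.10.

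*Des* was measured at 67.4, 59.6 and 57.7 CPM in HB and at 31.1, 35.0 and 45.4 CPM in HS. Every HB library lay above every HS library, and the log2 fold change was 0.72 ± 0.15 (edgeR adjusted p = 0.526, interval 0.39 to 1.05). Desmin is also made by heart muscle, and all 6 cardiomyocyte markers tested were higher in HB, against 46.3% of all genes. Their median log2 fold change was 3.72, and 5 had an unadjusted p under 0.05 by edgeR, against 6.68% of all genes. None passed after adjustment. *Myh6* and *Tnnt2* did not overlap, while *Actc1* did. *Tnnt2*, cardiac troponin T, was 1.87, 44.6 and 4.85 CPM in HB and at most 1.20 CPM in HS. *Myh6* was 7.82, 403 and 41.1 CPM in HB and at most 2.90 CPM in HS, and *Actc1*, cardiac actin, was 5.61, 111 and 14.0 CPM in HB and at most 5.97 CPM in HS. *Des* was highest in HB replicate 1, the library with the least *Myh6* of the group, and without HB replicate 2 its log2 fold change was 0.74 ± 0.17. Hydralazine-treated control replicate 5, with *Myh6* at 427 CPM, had 58.7 CPM of *Des*. Its *Des* TPM was 1.76% of its *Myh11* TPM, the highest share of all 30 libraries. The part of heart muscle in the *Des* difference was not tested. *Myocd* spread most of all, with 254, 250 and 148 CPM in HB and 123, 170 and 312 CPM in HS, and its log2 fold change of 0.10 ± 0.33 lay well within the spread. The highest *Myocd* value was that of HS replicate 3, and without this library the log2 fold change was 0.56 ± 0.24.

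Leaving out all 3 libraries that stood apart, so that 2 HB and 2 HS libraries remained, all 10 log2 fold changes were again above 0, with a median of 0.40 against 0.27 with them, and 0 of 10 passed by edgeR. Without HB replicate 2 alone, 9 of 10 were above 0. With all 3 left out, *Actg2* had a log2 fold change of 0.60 ± 0.11, *Des* of 0.91 ± 0.13 and *Smtn* of 0.52 ± 0.11. The median over all 12800 genes was -0.02 in the full comparison.

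**Figure D2:**
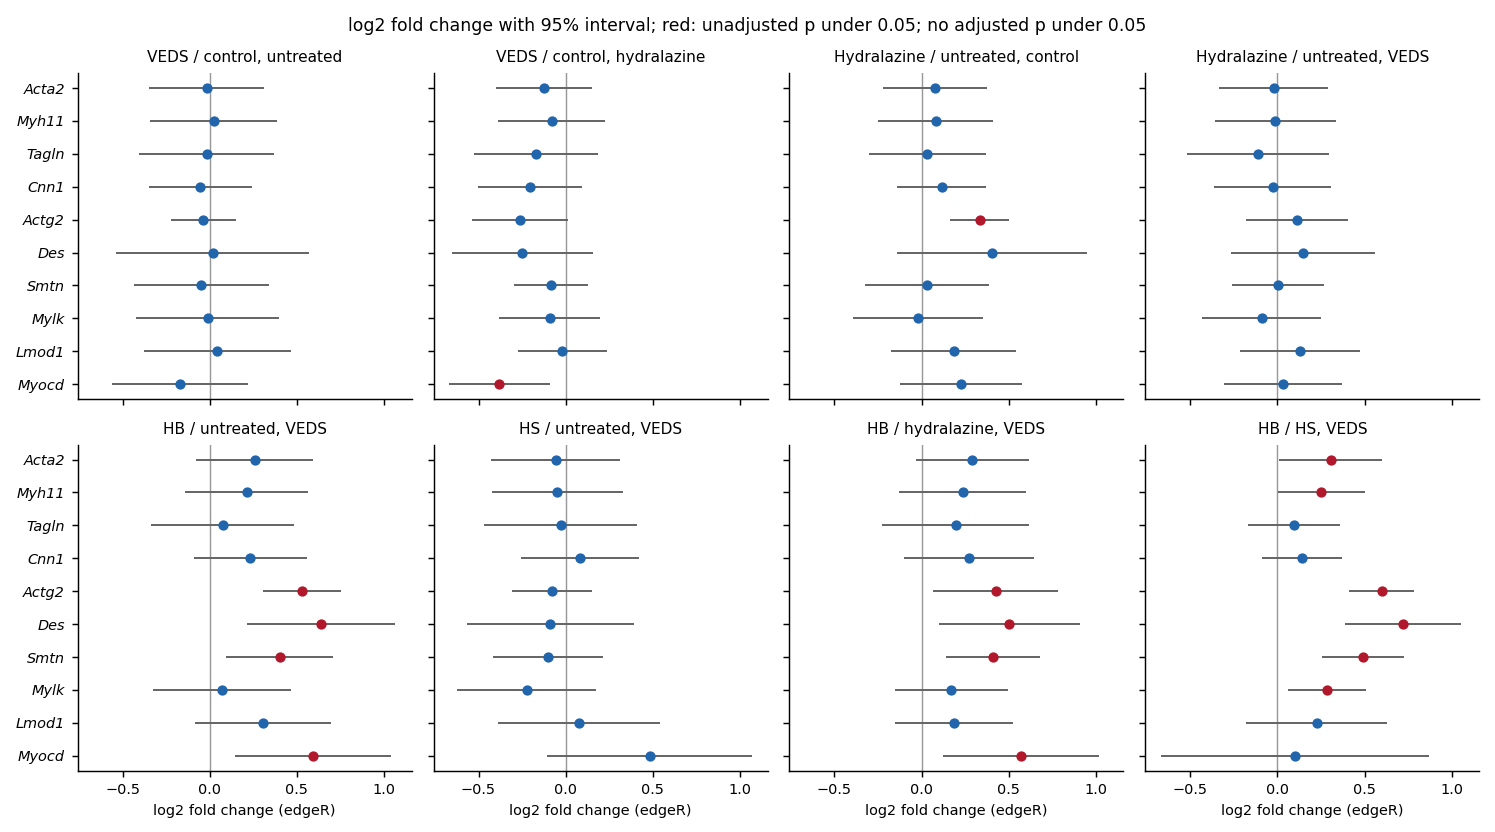
edgeR log2 fold change (x axis) of each contractile gene (y axis) in 8 comparisons, with 95% intervals as horizontal lines and red points where the unadjusted p was under 0.05. Red points number 6 in HB against HS, 4 in HB against untreated VEDS and 4 in HB against hydralazine-treated VEDS, and no gene passed after adjustment.

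HB aortas were next compared with untreated VEDS aortas, and all 10 genes again had a positive log2 fold change, with a median of 0.28 against -0.02 over all genes. HB lies in the lower *Col3a1* cluster, and untreated VEDS mixes both. *Myh11* was 8915 to 9934 CPM in HB. In untreated VEDS it was 8284 to 10632 in the lower cluster (replicates 1 to 3) and 6224 to 7768 in the upper. *Tagln* was 3396 to 3707, 3682 to 4417 and 2257 to 3175 CPM in the same order. *Actg2* and *Des*, given below, lay below HB in both clusters. Beyond a matrix covariate given later, the part of this mixture was not tested. By edgeR 0 of 10 passed (0.409% of 13204 genes passed), with 4 of 10 at an unadjusted p of 0.05 against 16.4% of all genes, while DESeq2 called *Actg2* and *Des* among 4.27% of all genes. *Actg2* had a lowest, median and highest value of 112, 137 and 152 CPM in untreated VEDS, all below the lowest HB value of 186 CPM. Its log2 fold change was 0.53 ± 0.10 (edgeR adjusted p = 0.061). *Des* ran from 25.6 through a median of 38.2 to 53.3 CPM in untreated VEDS, below the lowest HB library at 57.7 CPM, with a log2 fold change of 0.64 ± 0.19 (edgeR adjusted p = 0.140). These 2 of 10 genes were higher in every HB library, which held for 4.89% of all genes. *Myocd* overlapped, at 106, 134 and 183 CPM (lowest, median, highest) in untreated VEDS, and its log2 fold change was 0.59 ± 0.20 (edgeR adjusted p = 0.183). Without HB replicate 2 all 10 log2 fold changes stayed positive, with a median of 0.33. Whether *Actg2* passed depended on the model and on 1 library. It passed with 1 surrogate variable (adjusted p = 0.042) and in 1 fit of all libraries (adjusted p = 0.048). Without untreated VEDS replicate 1, the highest of its group for 9 genes of the 10, *Actg2* (adjusted p = 0.020) and *Des* (adjusted p = 0.040) passed by edgeR. *Hspa1b* moved with this comparison, at 166 to 225 CPM in HB and 32.4 to 46.6 CPM in untreated VEDS, and its part in the result was not tested.

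Against hydralazine-treated VEDS aortas, which share hydralazine with HB and which differ from it in bicalutamide and in age composition, the HB log2 fold changes were also all positive, with a median of 0.28. None of the 10 passed by edgeR (0.0151% of 13266 genes passed), 4 of 10 and 15.5% of all genes had p under 0.05 before adjustment, and DESeq2 called *Smtn* among 4.33% of all genes. *Smtn* ran from 272 through 337 to 398.7 CPM in hydralazine-treated VEDS, below each HB library (403 to 476 CPM), with a log2 fold change of 0.41 ± 0.12 (edgeR adjusted p = 0.148). *Des*, at 28.9 to 55.2 CPM in the hydralazine group, also lay below HB throughout, with a log2 fold change of 0.50 ± 0.18 (edgeR adjusted p = 0.225). *Actg2* did not, since hydralazine-treated VEDS replicate 6 had 206 CPM, above every HB library, while the other 5 had 101 to 146 CPM. The share of all genes that lay below HB throughout was not counted for this comparison, so the separation of *Smtn* and *Des* has no background beside it. *Myocd* had a log2 fold change of 0.57 ± 0.20 (edgeR adjusted p = 0.215). Without HB replicate 2 all 10 log2 fold changes stayed positive, with a median of 0.29. This direction depended on the model. With 1 surrogate variable, an estimate of hidden variation, 5 of the 10 log2 fold changes were positive and 5 negative, with a median of -0.05. With the matrix transcript level (mean log2 CPM of *Col1a1*, *Col3a1* and *Eln*) as a covariate, 9 of 10 were positive with a median of 0.12, and the same covariate left 8 of 10 positive with a median of 0.21 against untreated VEDS.

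HS aortas did not differ detectably from either VEDS group in the contractile genes. Both VEDS groups, however, mix the 2 *Col3a1* clusters, and HS lies in the lower one. In untreated VEDS replicates 1 to 3, of the lower cluster, *Mylk* was 1547 to 1974 CPM, above HS at 1199 to 1289. *Smtn* was 351 to 415 CPM there, above HS at 300.2 to 339. The other members overlapped. This subset was not tested, and the share of all genes separated in it was not counted. Against untreated VEDS, 3 of 10 genes were higher and 7 lower, with a median log2 fold change of -0.05, and 0 of 10 passed by edgeR (0.309% of 13276 genes passed). No member had an unadjusted p under 0.05, against 11.1% of all genes, and DESeq2 called 0 of 10 against 2.22% of all genes. Without untreated VEDS replicate 1 the split was 7 higher and 3 lower with a median of 0.04, and without HS replicate 1 it was 6 and 4. With 1 surrogate variable it was 1 higher and 9 lower, with a median of -0.11. *Actg2* had a log2 fold change of -0.08, with an interval from -0.31 to 0.15, and *Mylk* had a log2 fold change of -0.22 ± 0.18 (edgeR adjusted p = 0.650). *Myocd* had the largest difference at 0.48 ± 0.26 (edgeR adjusted p = 0.531), which rested on HS replicate 3, since the value without it was 0.03 ± 0.20. Against hydralazine-treated VEDS the count was again 3 higher and 7 lower, with 0 of 10 and 0% of 13304 genes called by edgeR, 0 of 10 and 13.6% of genes passing 0.05 before adjustment, and 0 of 10 against 0.406% called by DESeq2. Without replicate 1, 2 or 6 of the hydralazine group this split was 6 higher and 4 lower, and with 1 surrogate variable all 10 were lower with a median of -0.33. The HB and HS comparisons above share the same untreated or hydralazine libraries, so their values are not independent of each other.

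Hydralazine alone was examined in each genotype. In control mice 9 of 10 genes had a positive log2 fold change, with a median of 0.10 against 0.01 over all genes, and *Actg2* had the smallest p of the 10. That median moved with single untreated libraries. It was 0.02 with 5 of 10 positive without untreated control replicate 5, and 0.17 and 0.16 without untreated control replicates 1 and 3. *Actg2* had a lowest, median and highest value of 120, 141 and 156 CPM in untreated control and of 160, 172 and 191 CPM under hydralazine, without overlap. Its log2 fold change of 0.33 ± 0.08 ranked 17 of 12951 genes by p but had an edgeR adjusted p of 0.497. The share of all genes without overlap was not counted for this comparison, so the separation of *Actg2* has no background beside it. *Des* ran from 17.6 through 39.2 to 56.1 CPM untreated and from 30.1 through 53.1 to 63.8 CPM treated, an overlapping pair with a log2 fold change of 0.40 ± 0.25 (edgeR adjusted p = 0.596). *Myocd* had a log2 fold change of 0.23 ± 0.16 and overlapped. In all, 0 of 10 and 0% of genes passed by edgeR, 1 of 10 (*Actg2*) and 9.5% had p under 0.05 before adjustment, and DESeq2 called *Actg2* (adjusted p = 0.050) among 0.0849% of genes. Without hydralazine-treated control replicate 5, the library with cardiac transcripts, *Actg2* had a log2 fold change of 0.35 ± 0.08. All 10 genes were then positive, with a median of 0.13. With the matrix covariate all 10 were positive too, with a median of 0.16.

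In VEDS mice hydralazine left 5 genes higher and 5 lower, with a median of -0.0050 against 0.01 over all genes. None of the 10 passed by edgeR or DESeq2 (0% and 0.0154% of 13006 genes), and 0 of 10 against 4.53% of genes had an unadjusted p under 0.05. *Actg2* had a log2 fold change of 0.11 ± 0.14, *Lmod1* of 0.13 ± 0.16 and *Des* of 0.15 ± 0.19 (edgeR adjusted p = 1.00 for each). The split ranged from 2 higher without treated replicate 6 to 9 higher without untreated replicate 1. The difference of *Actg2* rested on replicate 6 of the treated group, and without it the value was -0.01 ± 0.11. Whether hydralazine acted differently in VEDS and control was tested as an interaction. All 10 interaction terms were negative, with a median of -0.13 against -0.01 over all genes, but 0 of 10 and 0% of 13407 genes passed by edgeR, 0 of 10 and 3.28% had p under 0.05 before adjustment, and none of the 10 (0% of genes) was called by DESeq2. The term for *Actg2* was -0.23 ± 0.16 with an interval from -0.56 to 0.11, and with 1 surrogate variable 9 of the 10 terms turned positive. With single libraries left out, 0 to 3 terms were positive and the median ran from -0.20 to -0.03, nearest 0 without untreated VEDS replicate 1. So a difference between the genotypes in the response to hydralazine was not detectable.

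VEDS and control aortas were compared to ask whether the collagen mutation alone changed the contractile genes. Untreated, 3 genes were higher and 7 lower in VEDS, and 0 of 10 passed by edgeR or DESeq2 (0% of 12976 genes by either). Leaving out 1 library turned this split, from 0 higher and 10 lower without VEDS replicate 1 or control replicate 5 to 8 higher and 2 lower without control replicate 1 or VEDS replicate 6, and 7 higher without control replicate 3 or VEDS replicate 4, with medians from -0.11 to 0.06. Each group held 3 libraries of each *Col3a1* cluster, so leaving out 1 library also left the clusters unequal between the groups. Cluster was not a term in this fit. No member had an unadjusted p under 0.05, against 3.04% of all genes. *Acta2* had a lowest, median and highest value of 6733, 9061 and 11732 CPM in control and of 7012, 8622 and 12020 CPM in VEDS, nearly the same range. Its log2 fold change was -0.02 with an interval from -0.35 to 0.31. *Myh11* had 5212, 8239 and 9675 CPM in control and 6224, 8026 and 10632 CPM in VEDS, with an interval from -0.34 to 0.39. The intervals of *Actg2* (-0.23 to 0.15) and *Cnn1* (-0.35 to 0.24) were the narrowest, and the widest was that of *Des* (-0.54 to 0.57), so changes beyond these bounds lie outside the 95% intervals while smaller ones could not be seen. *Myocd* had the smallest p, with a log2 fold change of -0.17 ± 0.18.

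Under hydralazine all 10 genes had a lower mean in VEDS than in control, with a median log2 fold change of -0.15 against -0.01 over all genes. By edgeR 0 of 10 and 0% of 12966 genes passed, 1 of 10 (*Myocd*) and 4.64% had p under 0.05 before adjustment, and none of the 10 (0.00771% of genes) was called by DESeq2. Single libraries moved the median, which was -0.09 without VEDS replicate 4 and -0.23 without VEDS replicate 6. *Myocd* had 160, 189 and 218 CPM (lowest, median, highest) in control and 111, 134 and 209 CPM in VEDS. The groups overlapped by 1 VEDS library, replicate 6, and the log2 fold change was -0.38 ± 0.13 (edgeR adjusted p = 0.923). *Actg2* had a log2 fold change of -0.26 ± 0.13 and *Cnn1* of -0.20 ± 0.14 (edgeR adjusted p = 0.923 for both). With 1 surrogate variable 7 of the 10 turned positive, with a median of 0.04. All 10 stayed lower by DESeq2 and in 1 fit of all libraries (median -0.15 in each). The same held with the matrix covariate (median -0.18) and without control replicate 5 (median -0.17). Over both treatments together, with treatment as a covariate, 1 gene (*Lmod1*) was higher and 9 lower in VEDS, and 0 of 10 and 0% of 13407 genes passed by edgeR. *Myocd* alone had an unadjusted p under 0.05, as did 3.7% of all genes, with a log2 fold change of -0.28 ± 0.12 (edgeR adjusted p = 1.00), while DESeq2 called 0 of 10 and 0.00746% of genes. *Actg2* (-0.15 ± 0.08) and *Cnn1* (-0.13 ± 0.10) followed.

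Other genes of the contractile system were followed as lists. Among 36 further contractile and actin-binding genes, 34 were higher in HB than in untreated VEDS, with a median log2 fold change of 0.27, and 17 had an unadjusted p under 0.05, though 0 passed by edgeR. Over all genes 47.2% were higher and 16.4% had an unadjusted p under 0.05. *Actn1*, an actin crosslinker, had 988 ± 88.9 CPM in HB (SD, n = 3) and 623 ± 109 CPM in untreated VEDS (SD, n = 6), with a log2 fold change of 0.66 ± 0.13 (edgeR adjusted p = 0.068). The same list had 26 genes higher and 10 lower in HB against HS, with a median of 0.11 and 46.3% of all genes higher, and 36 of 36 lower in VEDS than in control under hydralazine, where 52.1% of all genes were lower, with a median of -0.15 and 0 passing by edgeR. In HS against untreated VEDS, 26 of 36 were higher, against 48% of all genes, with a median of 0.08.

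Regulators of smooth muscle transcription included 1 gene that edgeR called, the only call by this test in the main fits of the 10 genes and these 4 lists. Of 34 measured, 24 were higher in HB than in untreated VEDS, and *Mef2d*, a MADS-box transcription factor, rose with a log2 fold change of 0.48 ± 0.07 (87.4 ± 1.64 against 62.5 ± 5.20 CPM; edgeR adjusted p = 0.039). Between HB and HS this list was evenly divided, 16 higher and 18 lower with a median of -0.01, and the smallest p was that of *Tgfb1i1*, a focal adhesion protein, at 112 ± 3.96 and 84.9 ± 3.02 CPM (log2 fold change 0.39 ± 0.08, edgeR adjusted p = 0.540). *Klf4*, which represses contractile genes in cultured smooth muscle, had 37.2 ± 7.37 CPM in HS and 22.9 ± 3.42 CPM in untreated VEDS (log2 fold change 0.69 ± 0.15, edgeR adjusted p = 0.119).

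Relaxation genes of the nitric oxide and cyclic nucleotide pathways, 13 of them measured, had 9 higher in HB than in untreated VEDS (median 0.21) and 10 higher in HB than in HS (median 0.06), and 0 passed by edgeR. *Atp2a2*, the calcium pump of the sarcoplasmic reticulum, led both, at 833 ± 56.6 CPM in HB, 668 ± 61.4 in untreated VEDS and 681 ± 25.0 in HS. *Prkg1*, the cGMP-dependent kinase, was 147 ± 7.84 CPM under hydralazine and 168 ± 5.31 CPM untreated in control mice (log2 fold change -0.20 ± 0.05, edgeR adjusted p = 0.497). Genes of modulated smooth muscle, 17 measured, had 10 higher and 7 lower in HB against HS (median 0.08). *Fn1*, fibronectin, had 2517 ± 159 CPM in HB and 1647 ± 228 CPM in untreated VEDS (log2 fold change 0.60 ± 0.12, edgeR adjusted p = 0.063).

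**Figure D3:**
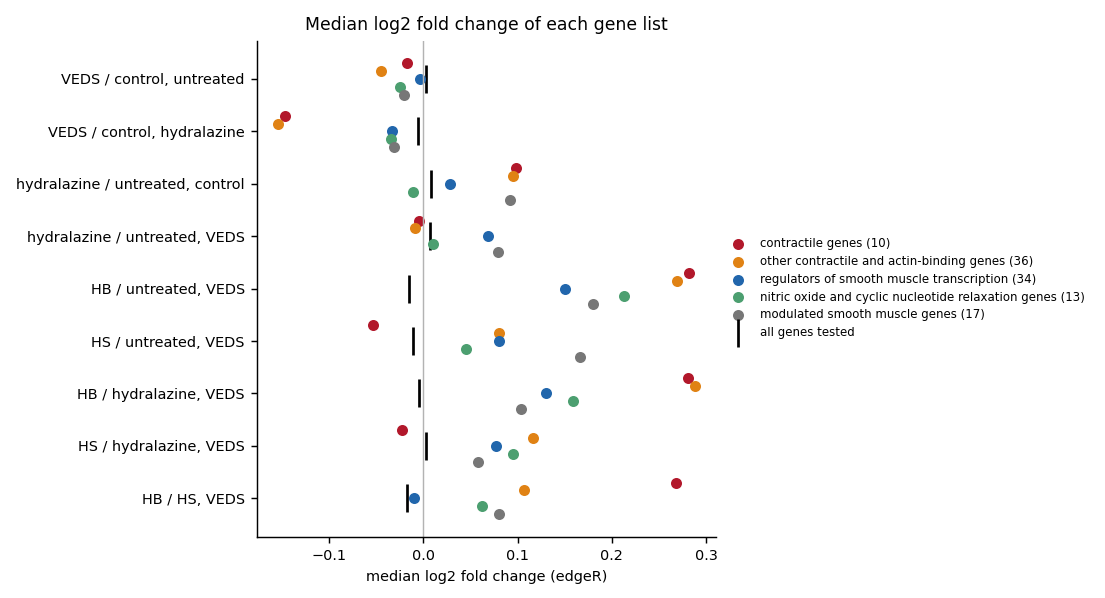
Median edgeR log2 fold change (x axis) of the 10 contractile genes and of 4 related lists in 9 comparisons (y axis), with black ticks for the median over all genes tested. The contractile genes lie at 0.27 or above in the 3 HB comparisons and between -0.15 and 0.10 in the other 6.

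Markers of other cells were read beside these values. The summed level of the 12 cardiomyocyte markers, led by *Ryr2*, which smooth muscle also expresses, ran from 259 to 1012 CPM in HB, from 157 to 262 in HS and from 153 to 257 in untreated VEDS, and 8 of 8 measured were higher in HB than in untreated VEDS. Pericyte markers, led by *Rgs5*, ran from 2568 to 3009 CPM in HB, from 2264 to 2766 in HS and from 1404 to 2216 in untreated VEDS. Of 6 pericyte markers tested, 5 were higher in HB than in untreated VEDS (median log2 fold change 0.37) and 4 in HS (median 0.06), and *Rgs5* averaged 1177 CPM in HB, 1149 in HS and 543 in untreated VEDS. Skeletal muscle markers summed to 23.4 CPM at most and visceral or oesophageal epithelial markers to 10.4 CPM at most in any group. Fibroblast markers ran from 4652 to 5066 CPM in HB and from 4816 to 5238 in HS, and endothelial markers from 865 to 1189 and from 1081 to 1298. Macrophage markers ran from 490 to 767 CPM in HB and from 611 to 733 in HS, and Schwann cell markers from 23.8 to 26.2 and from 19.4 to 24.0. Adipocyte markers ran from 1225 to 1718 CPM in HB and from 1251 to 1958 in HS, against 1683 to 2131 in untreated VEDS, brown adipocyte markers from 229 to 486 and from 200.3 to 479, against 508.7 to 1313, and hepatocyte markers from 1006 to 1314 and from 392 to 2748, against 256 to 19567. Proliferation genes summed to 52.7 to 106 CPM in HB and 52.4 to 88.7 in HS, with 0 of 13 higher in HB than in untreated VEDS. Apart from the values without single libraries, the part of these cells in the contractile gene levels was not tested.

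Contractile genes varied together among the libraries. Because the libraries form clusters, correlations of log2 CPM were taken within the 18 libraries with lower *Col3a1* and within the 12 with higher *Col3a1*, each a mixture of groups that share library scaling. All 45 pairs had a positive Pearson r in both, with a median of 0.60 over 18 and 0.69 over 12 libraries, and with group means subtracted 44 and 39 pairs stayed positive. After adjustment over the 90 correlations, 27 and 25 pairs passed by the permutation test of Pearson's r and 23 and 24 by that of Spearman's rho. *Tagln* and *Cnn1* were closest over 12 libraries (r = 0.97, rho = 0.94, permutation p = 2e-05 for each, adjusted p = 0.00045 and 0.00090), and r was 0.95 without the 2 farthest libraries. *Tagln* and *Mylk* were closest over 18 libraries (r = 0.88, rho = 0.86, permutation p = 1e-05 for each, the smallest the resamples can give, adjusted p = 0.00045 and 0.00090), and r was 0.78 without the 2 farthest. *Acta2* and *Actg2* had r = 0.63 over 18 and r = 0.88 over 12 libraries. *Myocd* followed the others least, with a median r of 0.36 and 0.26 with the other 9 genes, where *Myh11* had 0.72 and 0.80.

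**Figure D4:**
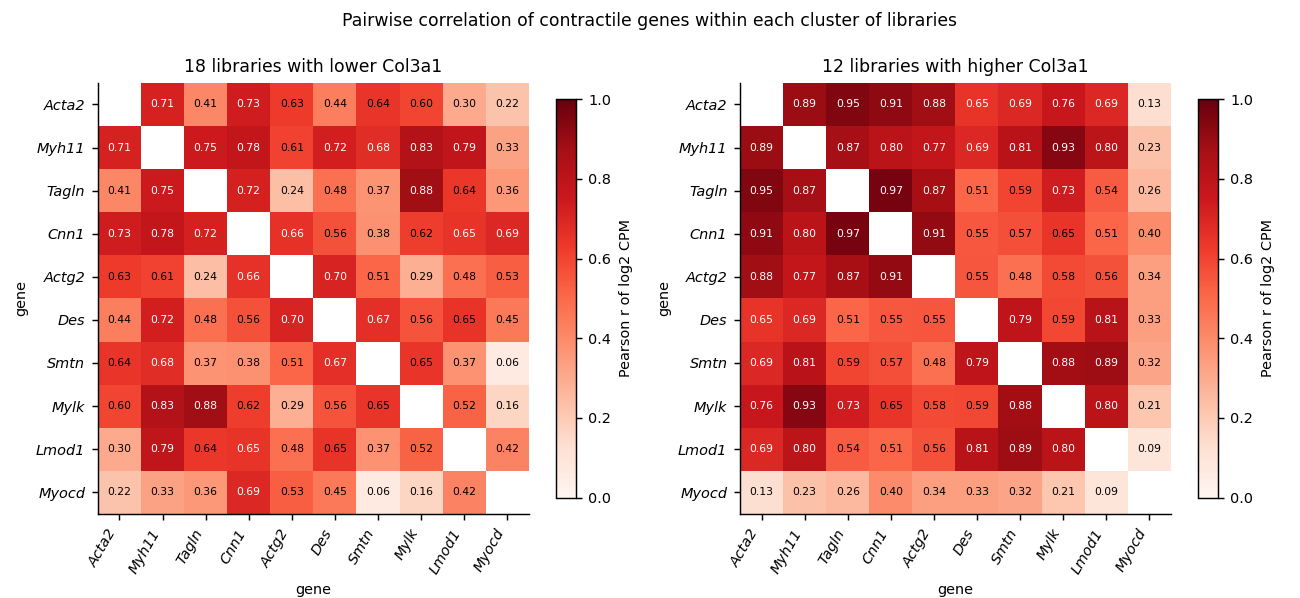
Pearson r of log2 CPM for each pair of contractile genes, within the 18 libraries with lower *Col3a1* (left) and the 12 with higher *Col3a1* (right), from 0 (white) to 1 (dark red). The *Myocd* row is the palest in both panels, and *Acta2*, *Tagln*, *Cnn1* and *Actg2* form a dark block over 12 libraries.

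Among 13523 other genes with a mean of at least 1 CPM, those most like the mean standardised level of the 10 contractile genes over 30 libraries were *Csrp1*, *Flna*, *Dmpk*, *Anxa11* and *Itga3*. *Csrp1*, a LIM protein of the actin cytoskeleton, had a Pearson r of 0.97 (0.95 within 18 and 0.91 within 12 libraries), and *Flna*, filamin A, had an r of 0.97 at a mean of 15874 CPM. *Itga3*, an integrin subunit, had an r of 0.94. These values describe likeness in the same libraries and carry no test.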

How the data were processed

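RNA was taken from 30 descending thoracic aortas. Per the labels and the study's methods, the authors made stranded total RNA libraries, sequenced them as paired reads, converted base calls with CASAVA 1.8.4 and quantified RefSeq genes on mm39 with RSEM. The deposited files hold, per gene, an expected count, a TPM value, a weighted length and the posterior SD of the count, which is a score of assignment uncertainty given by the authors' tool. Of all expected counts 97.6% were whole within 1e-06, and they were rounded for testing. Labels and methods name different RNA kits. All libraries carry the same batch label, and neither age nor extraction batch is labelled per library, so neither entered a model. Nothing ties libraries to a common litter, and p-values measure the spread between these libraries.

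A separate fit of the libraries concerned was made for each comparison with edgeR 4.0.16 under R 4.3.3 (TMM scaling, default expression filter, quasi-likelihood F-test), and p-values were adjusted by Benjamini-Hochberg over all genes tested, with a threshold of 0.05. Errors of log2 fold changes are SE and intervals are 95%. DESeq2 1.42.0 and 1 surrogate variable (sva 3.50.0) were alternatives, beside other size factors, other low-count filters, 1 fit of all libraries and each library left out. A matrix covariate (*Col1a1*, *Col3a1* and *Eln*) and leaving out 3 libraries were added after seeing the data. Correlations used 100000 permutations, two-sided. The pipeline was tested on simulated counts.

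The 10 genes and the gene lists were chosen with earlier results of these data known. Every one of the 10 is given, with the 3 smallest p per comparison described where none was called, and of other lists the called genes or the gene with the smallest p in the comparisons described. The likeness ranking added 0.5 CPM before taking logs. Promoter and transcript sequences come from GRCm38 tables and not from the mm39 build of the counts, which was not used here.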

Additional observations from a re-analysis of the deposited data

Results flagged for a closer look

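Of 40 groups of 6 libraries (10 genes in 4 groups), 1 held a library far from the others, by a criterion that chance meets in about 1 in 20 groups. *Smtn* was 290 CPM in hydralazine-treated control replicate 3, where the other 5 libraries lay between 350.0 and 381 CPM.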

How the results depend on the processing

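The number of contractile genes called was 0 in all 11 comparisons by the main test and stayed 0 in 216 of 224 refits. In HB against untreated VEDS it was 2 by DESeq2, 1 with 1 surrogate variable and 1 in the fit of all libraries, and ranged from 0 to 2 when each library was left out. It was 1 by DESeq2 in HB against hydralazine-treated VEDS and in hydralazine against untreated control, and in HB against HS it was 3 by DESeq2 and 2 with 1 surrogate variable. Of the fold changes of named genes, 652 of 672 refits kept their direction and side of the threshold, 13 passed it and 7 reversed. With each library left out, untreated VEDS against control gave -0.073 to 0.011 for *Actg2* (above 0 without VEDS replicate 6) and -0.14 to 0.013 for *Cnn1* (above 0 without control replicate 1, at 0.012, or VEDS replicate 6), and hydralazine in VEDS gave -0.0078 (without treated replicate 6) to 0.18 for *Actg2*. With 1 surrogate variable the interaction terms of *Myocd* and *Des* became 0.0073 and 0.13, and *Myocd* in HS against hydralazine-treated VEDS became -0.046. The cause of these reversals was not tested. Calls over all genes moved more. HB against untreated VEDS gave 54 by edgeR, 564 by DESeq2, 177 with the surrogate variable, 2 without the libraries that stood apart and 2 to 529 with each library left out, and HB against HS gave 0, 35, 8, 1 and 0 to 2. Group mean CPM under 2 other scalings moved by less than 1 SD in all 120 values. No paired analysis was possible because the labels give no replicate number that ties libraries across groups. With 3 libraries a group an exact permutation test of HB against HS could not go below p = 0.1. *Des* had the lowest counts of the contractile genes, at 103 to 450 per library, while *Myocd* had the largest SE in HB against HS, at 0.33.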
